A study of Mus musculus with 31 samples.

Results

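The genes described here are 45 genes of the cell cycle and of DNA replication, read in the hippocampus of Glud1 transgenic (Tg) and wild type (wt) mice at 5 ages. They were taken by name, as every probe set annotated to one of the 45 symbols and to no other gene. By this rule 44 of the 45 genes were measured, with 111 probe sets, among 18193 genes measured in all, and Ccnb1 (cyclin B1) had no probe set of its own in the annotation used. The Tg mice carry an additional Glud1 gene, for the enzyme glutamate dehydrogenase 1, that is expressed in neurons, and the promoter that drives it is not given in the sources used here. Tg and wt mice of 10 days, 4.5, 9, 14.5 and 20 months were compared, with 3 mice in each group except the wt group of 10 days, which held 4. All 31 mice were C57BL/6 males and each gave the total RNA of its hippocampus to 1 Affymetrix Mouse Genome 430 2.0 array. The Glud1 probe sets lie in a part of the transcript that the transgene lacks, so these arrays do not check the genotype labels. All 10 marker genes of hippocampal neurons that were examined lay above the array median on all 31 arrays.

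A cell that divides enters S phase when cyclin D kinases and cyclin E kinases inactivate the retinoblastoma protein and release the E2F factors, copies its DNA with the MCM helicase and the sliding clamp Pcna, and then passes through mitosis under the control of Cdk1, the Aurora kinases and the spindle checkpoint. CDK inhibitors hold the kinases back in cells that leave the cycle. In the mouse hippocampus most division in the second postnatal week takes place among the progenitors of dentate granule cells and of glia, and in the adult a small pool of progenitors in the subgranular zone and glial progenitors goes on dividing. In RNA of a whole hippocampus, fewer dividing cells and less RNA in each cell cannot be told apart.

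Signals are given on the linear scale of the arrays after log2 values were quantile normalised over the 31 arrays, and a change is the difference of mean log2 signals, later minus earlier age or Tg minus wt, ± its standard error (SE). A change was called at a limma p-value below 0.05 after Benjamini-Hochberg adjustment over all 45037 mouse probe sets, and each gene is shown by its brightest probe set. Correlations between arrays of a group ran between 0.891 and 0.952. They were lowest in the 9-month groups, at 0.9015 to 0.9063 in Tg mice and 0.891 to 0.908 in wt mice. Of the 44 genes, 42 exceeded the array median on 3 or more arrays, but 19 of these did so on fewer than 3 of the 24 adult arrays and 16 on no adult array. In 10 genes (Tyms, Tk1, Cdk1, Aurkb, Bub1, Bub1b, Birc5, Nusap1, Top2a and Mki67) the adult median lay under the highest signal of the bacterial TrpnX control probe sets, which was between 4.48 and 45.5 depending on the array, and adult values of this size have no dependable order. The 9-month arrays stood apart: the 18S ribosomal RNA control read 976 to 13960 against 57.4 to 656 at the other ages, the Dap spike-in read 1053 to 1574 against 5178 to 9975, and the log2 ratio of 3′ to 5′ actin signal was 0.71 to 0.96 against 0.32 to 0.55. The 4.5-month arrays stood apart in the log2 ratio of 3′ to 5′ Gapdh signal, at -0.08 to 0.02 against -0.46 to -0.14 at the other ages. Every comparison with 4.5 months uses these arrays, and the part of this was not tested. No processing batch is labelled, so age and array processing cannot be told apart. The p-values rest on the spread between mice within groups, pooled over all 10 groups and moderated over the probe sets. They do not measure the spread of the compared groups alone, and the small number of arrays limits their precision.

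The first question was how these genes changed between early postnatal development and young adulthood. At 4.5 months 35 of the 44 genes were lower than at 10 days, where 26.1% of all genes were, and 3 were higher, where 22% of all genes were. The 3 genes with higher values were Ccnd1, Ccne1 and Tyms. The median change of the 44 genes was -1.13, against -0.07 over all genes, with 6 mice of 4.5 months and 7 of 10 days. Among the 38 called genes 25 changed at least 2-fold, 13 at least 4-fold and 4 at least 10-fold. Shares of all genes at these fold sizes were not counted, so these counts describe the 44 genes only. The 4 of at least 10-fold were Tk1, Mki67, Cdk1 and Rrm2, of which the first 3 had dim adult values. With 50 added to every signal before the logarithm the largest were Rrm2 at -2.65, Mki67 at -2.34, Cdk1 at -2.31 and Top2a at -1.96. In 25 of the 44 genes every 10-day array exceeded every one of the 24 adult arrays, as in 8.78% of all genes. In 0 of the 44 did every 10-day array lie below every adult array, as in 6.43% of all genes. The median change was -1.13 in Tg mice and -1.29 in wt mice. The difference between the changes of the genotypes was called in 0 of the 44 genes, with 0% of all genes called. An unadjusted p below 0.05 was found in 4 of the 44, and in 1089 of all 18193 genes.

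**Figure D1:**
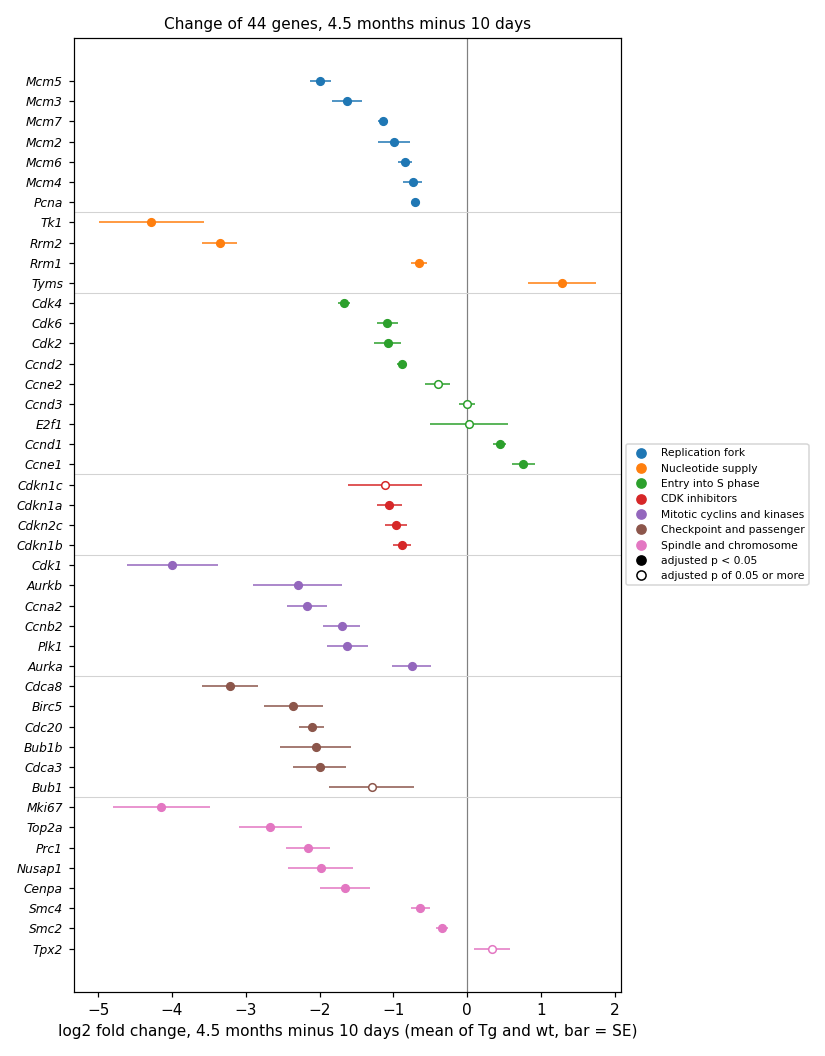
Log2 fold change of each of the 44 measured genes, 4.5 months minus 10 days (horizontal axis, mean of Tg and wt, bar = SE), grouped by role from the replication fork at the top to the spindle and chromosome genes; filled points have an adjusted p below 0.05. Most points lie left of 0, with Tk1 at -4.28 and Mki67 at -4.15 farthest out, and Ccnd1, Ccne1 and Tyms are the filled points to the right.

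Promoter sequences of some genes that fell, picked by name and not by the size of the change, were set beside that of Ccne1, which rose. Tk1 and Birc5, which also fell but held no match, are not printed. The printed set therefore does not show how elements go with the direction of change. Genes of S phase and of mitosis are known to carry different short elements. These are the cell cycle genes homology region (CHR, TTTGAA, with the variant TTCGAA), the CCAAT box, and the E2F element, searched here as TTTCCCGC, TTTCGCGC, TTTGCCGC or TTTGGCGC. The sequences are RefSeq reference sequence of GRCm38.p6, written 5′ to 3′ on the strand of the gene from 180 bases before to 30 bases after the annotated start, with letters of a match on either strand in capitals. Mki67 lies at chr7:135716350-135716559, Cdk1 at chr10:69352883-69353092, Cdc20 at chr4:118437314-118437523, Ccnb2 at chr9:70421525-70421734 and Ccne1 at chr7:38107461-38107670, all on the minus strand. Mcm5 lies at chr8:75109329-75109538 and Rrm2 at chr12:24708074-24708283, both on the plus strand.
Mki67: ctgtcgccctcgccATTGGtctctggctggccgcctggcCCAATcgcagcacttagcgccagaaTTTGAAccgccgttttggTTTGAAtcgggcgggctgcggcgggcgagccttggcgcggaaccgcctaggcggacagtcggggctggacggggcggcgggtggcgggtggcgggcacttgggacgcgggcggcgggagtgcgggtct
Cdk1: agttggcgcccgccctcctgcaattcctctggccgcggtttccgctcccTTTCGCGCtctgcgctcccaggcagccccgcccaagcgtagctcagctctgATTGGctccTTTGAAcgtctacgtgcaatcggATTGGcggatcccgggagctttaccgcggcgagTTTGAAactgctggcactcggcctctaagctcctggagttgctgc
Cdc20: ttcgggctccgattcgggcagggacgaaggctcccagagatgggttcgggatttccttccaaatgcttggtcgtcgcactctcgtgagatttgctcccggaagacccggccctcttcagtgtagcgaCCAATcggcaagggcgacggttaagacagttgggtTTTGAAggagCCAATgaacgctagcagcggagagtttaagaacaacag
Ccnb2: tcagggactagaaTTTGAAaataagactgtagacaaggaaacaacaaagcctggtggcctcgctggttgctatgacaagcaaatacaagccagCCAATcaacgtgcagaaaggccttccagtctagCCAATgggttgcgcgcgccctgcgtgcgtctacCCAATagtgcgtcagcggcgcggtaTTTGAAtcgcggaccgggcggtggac
Mcm5: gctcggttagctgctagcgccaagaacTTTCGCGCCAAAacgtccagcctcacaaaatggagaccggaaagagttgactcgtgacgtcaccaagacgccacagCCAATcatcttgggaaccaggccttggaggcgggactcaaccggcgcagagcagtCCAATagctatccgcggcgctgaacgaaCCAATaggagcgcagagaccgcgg
Rrm2: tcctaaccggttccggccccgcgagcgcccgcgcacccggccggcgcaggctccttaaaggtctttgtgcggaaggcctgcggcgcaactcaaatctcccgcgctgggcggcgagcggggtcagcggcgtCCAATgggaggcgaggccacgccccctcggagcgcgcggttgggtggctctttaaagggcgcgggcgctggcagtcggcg
Ccne1: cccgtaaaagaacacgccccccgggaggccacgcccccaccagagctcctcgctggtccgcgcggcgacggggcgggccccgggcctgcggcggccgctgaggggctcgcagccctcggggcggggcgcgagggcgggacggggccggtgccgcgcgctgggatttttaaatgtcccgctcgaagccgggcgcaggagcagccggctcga
Cdk1 had a CHR match 15 bases before the start and CCAAT letters on the opposite strand beginning 48 and 80 bases before it. Ccnb2 carried 3 CCAAT matches and a CHR match that begins 5 bases after the start. In Mcm5 the E2F letters TTTCGCGC overlap TTTGGCGC of the opposite strand, and no CHR match lies in the window. Rrm2 had 1 CCAAT match and Ccne1 none of the elements.

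Promoter windows of 250 bases before to 50 after the start were given for 36 of the 45 genes, Ccnb1 included, and for 27025 genes in all. Of the 17 genes of mitosis among them (mitotic cyclins and kinases, checkpoint and passenger genes, spindle and chromosome genes), 13 (76.5%) held TTTGAA on either strand, against 20.2% of all genes. Of the 16 genes of replication and entry into S phase, 1 (6.25%) did, namely Mcm2. CCAAT occurred in 88.2% of the mitosis genes and 62.5% of the replication and S-phase entry genes, against 41.1% of all genes. An E2F match occurred in 5 of the 16 replication and S-phase entry genes (31.2%), namely Mcm3, Mcm5, Mcm6, Mcm7 and Cdk2, and in 1 of the 17 mitosis genes (5.88%), Cdk1, against 2.6% of all genes. The variant TTCGAA was found in Mcm7, Bub1, Bub1b and Top2a and in 1.8% of all genes. Tk1, Cdk4, Cdk6, Cdkn1a, Birc5 and Nusap1, which were lower at 4.5 months, and Tyms and Ccne1, which were higher, held no match to any of the elements in the window. These shares describe letters in the windows, and binding was not measured.

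All 7 genes of the replication fork were lower at 4.5 months, with a median change of -0.99. Mcm5, a subunit of the MCM helicase that unwinds DNA, had 86.7, 103 and 158 at 4.5 months (lowest, median and highest mouse), against 386, 450 and 482 at 10 days. No mouse of 4.5 months came near the lowest 10-day value, and Mcm5 fell by 1.99 ± 0.14 on the log2 scale (adjusted p = 3.34e-13). Mcm3, a second helicase subunit, had 59.6, 85.6 and 110 at 4.5 months, against 213, 262 and 290 at 10 days. This was a change of -1.63 ± 0.21, again without overlap of the ages. The smallest change of the class was that of Pcna, the clamp that holds DNA polymerase on its template, at -0.70 ± 0.05. Pcna nevertheless separated the ages, with 2126 to 2405 at 4.5 months against 3340 to 4030 at 10 days. Of the other helicase subunits, Mcm7 changed by -1.14, Mcm2 by -0.99, Mcm6 by -0.84 and Mcm4 by -0.74. The adult medians of all 7 genes lay above the highest signal of the bacterial controls.

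Among the 4 genes that supply nucleotides 3 fell and 1 rose, where 26.1% of all genes fell and 22% rose. Rrm2, the subunit of ribonucleotide reductase that limits the making of deoxynucleotides, had 54.8, 65.8 and 90.9 at 4.5 months, against 651, 677 and 742 at 10 days. This change of -3.35 ± 0.24, or 10.2-fold, had the smallest error of the 4 changes of at least 10-fold (adjusted p = 2.11e-13). Rrm1, the partner subunit of the same enzyme, changed by -0.65 ± 0.10, and 1 mouse of 4.5 months (498) lay within the 10-day range of 471 to 618. Tk1, the thymidine kinase of the salvage pathway, had 1.88, 5.02 and 13.3 at 4.5 months, against 59.9, 79.1 and 168 at 10 days. The Tk1 change of -4.28 ± 0.71 was the largest of the 44 genes, but 23 of its 24 adult values were at or under the bacterial controls, and with 50 added to every signal before the logarithm it was -1.39. Tyms, the thymidylate synthase, was called higher at 1.28 ± 0.46 (adjusted p = 0.0258). At 4.5 months it had 22.4, 34.5 and 61.4, against 5.54, 27.0 and 38.3 at 10 days. The low 10-day values were those of the Tg mice alone, with 5.56, 5.54 and 8.25 in Tg mice and 36.0, 34.6, 38.3 and 27.0 in wt mice, a difference of -2.41 ± 0.63 that was not called (adjusted p = 0.234). All 4 Tyms probe sets were dim, and the other 3 were not called, with changes between -2.14 and 0.79. With 50 added the Tyms call was lost (0.34, adjusted p = 0.0577).

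Among the 9 genes of entry into S phase 4 fell, 2 rose and 3 were not called, with a median change of -0.40. Of all genes 26.1% fell and 22% rose, so the share of the class that rose was close to that of all genes. Cdk4, a kinase that works with the D cyclins, had 365, 426 and 515 at 4.5 months, against 1163, 1438 and 1549 at 10 days. Its change of -1.67 ± 0.08 had the smallest p of the 44 genes (adjusted p = 2.54e-18). Cdk6, the related kinase, had 110, 138 and 157 at 4.5 months, against 233, 298 and 332 at 10 days, a change of -1.08 ± 0.15. Cdk2, the partner of the E cyclins, fell by 1.08 ± 0.18 as well. The cyclins that pair with these kinases moved in different directions. Ccnd2 fell, at -0.89 ± 0.06, with 2005 to 2773 at 4.5 months against 4028 to 5198 at 10 days. Ccnd1, the cyclin D1 gene, rose, with 1034, 1177 and 1371 at 4.5 months against 682, 843 and 1034 at 10 days. That change was 0.44 ± 0.09 (adjusted p = 1.04e-04), the highest 10-day mouse reached the lowest mouse of 4.5 months, and all 3 Ccnd1 probe sets gave higher values. Ccnd3 was not called by its brightest probe set (adjusted p = 0.998), with 531 to 719 at 4.5 months and 482 to 766 at 10 days. A much dimmer Ccnd3 probe set was called higher at 1.36 (adjusted p = 0.00702), and another gave 0.65 and was not called. Ccne1, the cyclin E1 gene, rose by 0.76 ± 0.16 (adjusted p = 1.82e-04). Its values were 367, 418 and 494 at 4.5 months, against 201, 231 and 342 at 10 days, without overlap. Ccne2 changed by -0.40 ± 0.17 and missed the threshold (adjusted p = 0.0678). E2f1, a transcription factor of S-phase genes, gave 0.03 ± 0.53 by its brightest probe set and -0.98 by a second (adjusted p = 3.97e-04), so its probe sets disagreed.

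Of the 4 CDK inhibitors 3 fell together with the kinases that they restrain. Cdkn1a (p21) had 206, 272 and 345 at 4.5 months, against 479, 535 and 620 at 10 days, a change of -1.05 ± 0.17 without overlap. Cdkn1b (p27) changed by -0.89 ± 0.12 and Cdkn2c (p18) by -0.97 ± 0.15. Cdkn1c (p57) had the largest mean change of the 4, at -1.12 ± 0.50, and was not called (adjusted p = 0.0844). It had 55.9, 157 and 489 at 4.5 months, against 267, 380 and 501 at 10 days. Cdkn1c varied widely within ages, and so did the choroid plexus, whose 7 markers summed to 770 to 46300 at 4.5 months and 1480 to 43300 at 10 days. The lowest Cdkn1c value, 55.9 in a wt mouse of 4.5 months, fell on the array with the lowest choroid plexus sum (770), and the highest, 729 in a Tg mouse of 9 months, on the array with the highest sum (48700). At 10 days, however, Tg mice with sums of 1480 and 2030 had Cdkn1c at 381 and 311. The part of choroid plexus in these values was not tested.

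All 6 measured mitotic cyclins and kinases were lower at 4.5 months, with a median change of -1.93. Cdk1, the kinase that drives entry into mitosis, had 5.26, 27.2 and 70.0 at 4.5 months, against 276, 320 and 404 at 10 days. The ages stood apart by a wide gap, although the mice of 4.5 months differed widely among themselves. Aurkb, the kinase of the chromosomal passenger complex, had 11.5, 25.8 and 44.9 at 4.5 months, against 65.4, 144 and 165 at 10 days, a change of -2.30 ± 0.60 (adjusted p = 0.00229). Ccna2 and Ccnb2, the cyclins that Cdk1 binds, had smaller errors, with changes of -2.17 ± 0.27 and -1.70 ± 0.25. Plk1, a kinase of centrosome and spindle assembly, changed by -1.62 ± 0.28. Aurka, the spindle pole kinase, had the smallest change of the class at -0.75 ± 0.26, and was called (adjusted p = 0.0208). The Aurka call was lost without quantile normalisation (-0.45, adjusted p = 0.174), and its second, much dimmer probe set gave 0.91, so that the median of both was 0.081.

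Of the 6 checkpoint and passenger genes 5 fell, with a median change of -2.08 over the class. Cdca8 (borealin), which anchors the passenger complex on centromeres, had 2.75, 43.7 and 75.2 at 4.5 months, against 245, 279 and 314 at 10 days. Its change of -3.21 ± 0.38 included 1 mouse of 4.5 months far below the others. Birc5 (survivin), a second passenger subunit, had 28.8, 55.9 and 75.7 at 4.5 months, against 218, 245 and 281 at 10 days, a change of -2.35 ± 0.40. Cdc20, the activator of the ubiquitin ligase that starts anaphase, had the smallest error of the class. It had 80.5, 88.9 and 110 at 4.5 months, against 306, 401 and 443 at 10 days, a change of -2.11 ± 0.17. Bub1b, a checkpoint kinase homologue, changed by -2.06 ± 0.48, and Cdca3 had 32.8 to 68.0 at 4.5 months against 170 to 224 at 10 days. The other Cdca3 probe sets were about as bright and were not called, at -0.17 and -0.34. Bub1, a kinase of the spindle checkpoint, was dim at both ages and missed the threshold with its brightest probe set at -1.29 ± 0.58 (adjusted p = 0.0758), while a second, dimmer probe set gave -5.25 (adjusted p = 1.68e-06).

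Spindle and chromosome genes fell in 7 of 8 cases, with a median change of -1.82. Mki67, the Ki-67 protein that coats mitotic chromosomes and serves as a marker of dividing cells, had 5.67, 25.4 and 45.6 at 4.5 months, against 214, 340 and 359 at 10 days. Top2a, the topoisomerase that untangles sister chromatids, had 46.6, 57.7 and 79.7 at 4.5 months, against 319, 386 and 458 at 10 days, a change of -2.67 ± 0.43. Neither gene had an adult mouse near the 10-day range, although the other Top2a probe sets, both dimmer, gave -0.23 and 0.44 and were not called. Prc1 and Nusap1, which bundle and bind spindle microtubules, changed by -2.16 ± 0.30 and -1.98 ± 0.44, and the centromere histone Cenpa by -1.65 ± 0.34. Cenpa also had a dim probe set that was called higher at 2.08, the 1 gene of the 44 with calls in both directions, and the median of its probe sets changed by 0.30. The condensin subunits changed less, with -0.63 ± 0.13 for Smc4 and -0.34 ± 0.09 for Smc2. Tpx2, an activator of Aurora A, was the exception, at 0.33 ± 0.24 by its brightest probe set and -2.22 by another (adjusted p = 3.34e-07). Over all 111 probe sets of the 44 genes, 70 were called lower and 8 higher. Among all 45037 mouse probe sets 9017 were called lower and 9231 higher.

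**Figure D2:**
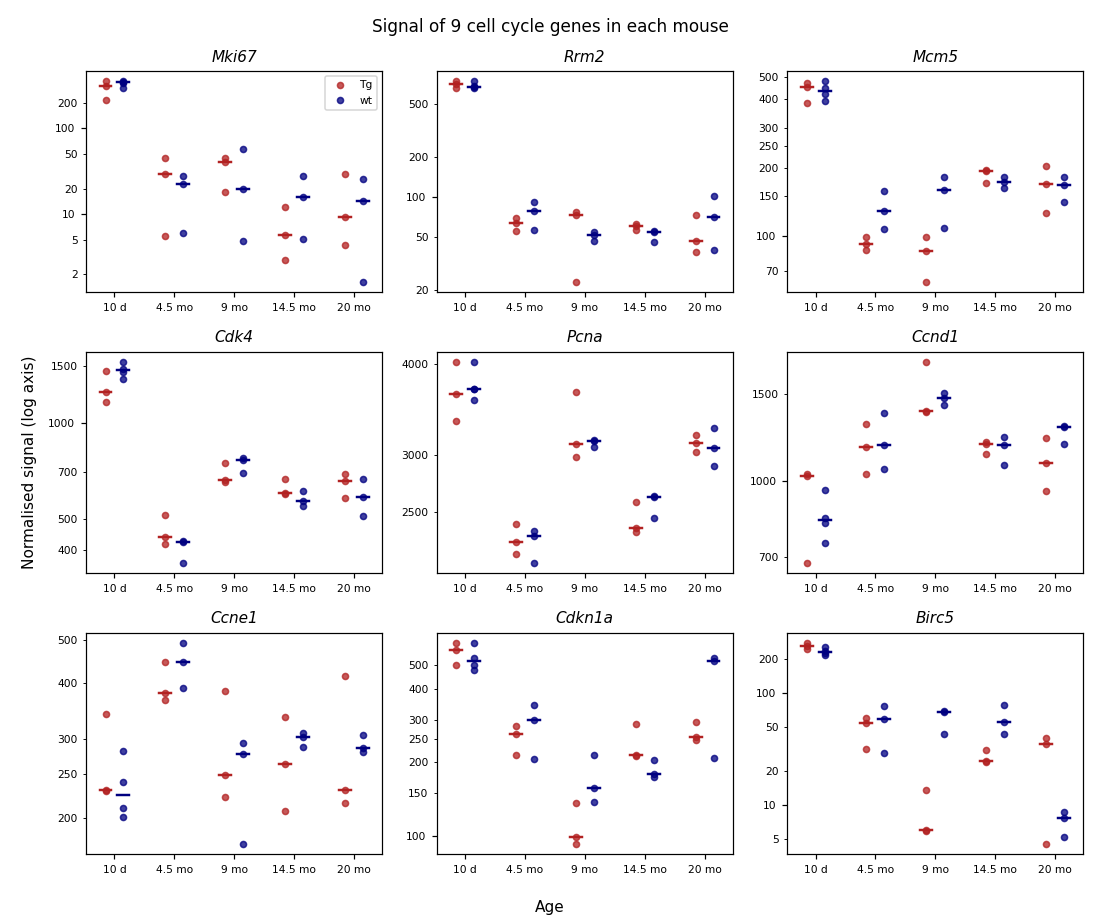
Normalised signal (log axis) of 9 genes in each of the 31 mice by age, Tg mice left in red and wt mice right in blue, with a line at each median. Mki67, Rrm2, Mcm5 and Cdk4 sit highest at 10 days in both genotypes, Ccnd1 sits highest at 9 months, and Birc5 at 9 months has all Tg mice (5.89 to 13.6) below all wt mice (43.0 to 68.5).

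A wider list of 106 other cell cycle genes, of which 104 were measured, held 61 lower and 12 higher at 4.5 months, where 26.1% of all genes were lower and 22% higher. The 3 largest falls were those of Kif23, a kinesin of cytokinesis, at -3.67 ± 0.44, Pole, the catalytic subunit of DNA polymerase epsilon, at -3.47 ± 0.60, and Ube2c, an enzyme of anaphase ubiquitination, at -3.45 ± 0.66. Kif23 had 7.89, 12.9 and 14.8 at 4.5 months, against 112, 158 and 198 at 10 days. The 3 largest rises were those of Mad1l1, a checkpoint protein, at 1.04 ± 0.30, E2f4, an E2F factor that represses, at 1.02 ± 0.13, and Anln, at 0.99 ± 0.10. Anln encodes anillin, an actin-binding protein of the cleavage furrow that is also known from central myelin. Its median signal was 392, 756, 1330, 1460 and 2240 at 10 days, 4.5, 9, 14.5 and 20 months. Marker genes of other cells moved over the same interval. Of 9 measured markers of progenitors and neuroblasts 8 were lower at 4.5 months, and their summed signal was 5226 to 5963 at 4.5 months against 15450 to 19730 at 10 days. Of 8 oligodendrocyte progenitor markers 4 were lower and 2 higher, the higher ones a share close to that of all genes, with sums of 12080 to 13810 at 4.5 months against 16810 to 19530 at 10 days. All 7 measured myelin markers were higher, with sums of 50890 to 68160 against 6121 to 12100. The part of these cells in the changes of the 44 genes was not tested.

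The later adult ages were then set against 10 days, in comparisons that share the same 10-day arrays. At 9 months 36 of the 44 genes were lower, with 27.7% of all genes lower, and 1 was higher, Ccnd1, with 21.1% of all genes higher. At 14.5 months 35 were lower (23.4% of all genes) and 3 higher (21.4% of all genes), namely Tyms, Ccnd1 and Ccnd3. At 20 months 34 were lower (23.7% of all genes) and 1 higher (21% of all genes), again Ccnd1. The median changes against 10 days were -1.13, -1.65, -1.28 and -1.19 at 4.5, 9, 14.5 and 20 months. Mki67 was -3.71 at 9 months, -5.14 at 14.5 months and -5.04 at 20 months, with medians of 30.4, 8.89 and 11.8 in these mice. Those medians lie at the level of the bacterial controls, so their order carries no weight. Mcm4 was not called at 20 months, at -0.04 ± 0.13, and its mice spanned 406 to 558 at 20 months against 360 to 561 at 10 days. Pcna, at -0.26 ± 0.05, was still called lower at 20 months.

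Among the 4 adult ages 25 of the 44 genes differed by the limma F-test, a share not far from the 50.3% of all genes that did. Without the 9-month arrays the count was 17, with 41.1% of all genes. At 9 months 12 genes were lower than at 4.5 months (16.7% of all genes) and 5 higher (14.1% of all genes). At 14.5 months 6 were lower than at 9 months (15.1% of all genes) and 14 higher (18.9% of all genes). Pcna, Mcm7, Cdk4, Ccnd1 and Smc2 were the 5 that were higher at 9 months than at 4.5 months, each without overlap of the 2 ages. The share of all genes without overlap of these ages was not counted, so the lack of overlap adds nothing to the calls. Ccnd2 went the other way, with 1308 to 1657 at 9 months against 2005 to 2773 at 4.5 months, a change of -0.66 ± 0.07. Cdkn1a had 92.9, 137 and 215 at 9 months, against 206, 272 and 345 at 4.5 months, a change of -0.97 ± 0.18. Both comparisons rest on the 9-month arrays with their divergent 18S, spike-in and actin controls, whose part was not tested. At 20 months 3 genes were lower than at 14.5 months (10.3% of all genes), namely Birc5 at -1.78, Cdca3 at -1.39 and Mcm6 at -0.27, and 4 higher (11.4% of all genes), namely Cdkn1a at 0.61, Pcna at 0.31, Mcm7 at 0.31 and Ccnd2 at 0.24.

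The comparison of 20 months with 4.5 months addressed aging of the adult hippocampus. At 20 months 4 of the 44 genes were lower than at 4.5 months, with 13.4% of all genes lower, and 5 were higher, with 14.8% of all genes higher. The median change was -0.01, against 0.03 over all genes. Both counts lay below the share over all genes. The 5 genes with higher values were Mcm4, Mcm5 and Pcna of the replication fork, Cdk4, and the condensin subunit Smc2. Mcm4 had 406, 460 and 558 at 20 months, against 196, 297 and 436 at 4.5 months, a change of 0.70 ± 0.13, while its second probe set gave 0.39 and was not called. The brightest Mcm5 probe set gave 126, 169 and 203 at 20 months, against 86.7, 103 and 158 at 4.5 months, a change of 0.57 ± 0.15, while its second probe set gave 0.12 and was not called. Cdk4 had 513, 622 and 691 at 20 months, against 365, 426 and 515 at 4.5 months, a change of 0.51 ± 0.08 with the ages overlapping at their ends, while its other 2 probe sets gave 0.24 and 0.29 and were not called. Pcna had 2895, 3091 and 3267 at 20 months, against 2126, 2293 and 2405 at 4.5 months, without overlap. Its change was 0.44 ± 0.05, with 1 probe set. Smc2 changed by 0.26 ± 0.09 (adjusted p = 0.0354), and none of its other 4 probe sets, all dimmer, was called.

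The 4 genes with lower values at 20 months by their brightest probe set were Birc5, E2f1, Cdca3 and Ccne1. Birc5 had 4.51, 8.13 and 39.6 at 20 months, against 28.8, 55.9 and 75.7 at 4.5 months, a change of -2.09 ± 0.41 with overlap of the ages, or -0.61 with 50 added. E2f1 had 11, 88.5 and 120 at 20 months, against 132, 191 and 268 at 4.5 months. The ages did not overlap for E2f1, but its change of -1.51 ± 0.55 lay just past the threshold (adjusted p = 0.049), its second probe set gave 0.01, and the call was lost when any of 23 single mice was left out. Cdca3, a gene of mitotic entry, had 4.75, 31.2 and 75.9 at 20 months, against 32.8, 56.0 and 68.0 at 4.5 months, a change of -1.27 ± 0.37, or -0.37 with 50 added. Its other probe sets were not called, at -0.79 and 0.36. The low Cdca3 values were those of the wt mice of 20 months, with a change of 0.02 ± 0.53 in Tg mice and -2.57 ± 0.53 in wt mice, a difference that was not called (adjusted p = 0.785). Ccne1, which was higher at 4.5 months than at 10 days, had 216, 283 and 416 at 20 months, against 367, 418 and 494 at 4.5 months, a change of -0.57 ± 0.16, while its second probe set gave -0.22 and was not called. Across the ages Ccne1 had its highest median at 4.5 months, with medians of 231, 418, 264, 295 and 283 at 10 days, 4.5, 9, 14.5 and 20 months. Some genes without a call by the brightest probe set had other probe sets called between 4.5 and 20 months. Bright ones were lower in Ccnd2 (-0.44, -0.48 and -0.81) and Ccnd1 (-0.33), and higher in Mcm7 (0.57). Dim ones were lower in Mcm3 (-1.81) and Cenpa (-3.15), and higher in Bub1 (2.24).

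**Figure D3:**
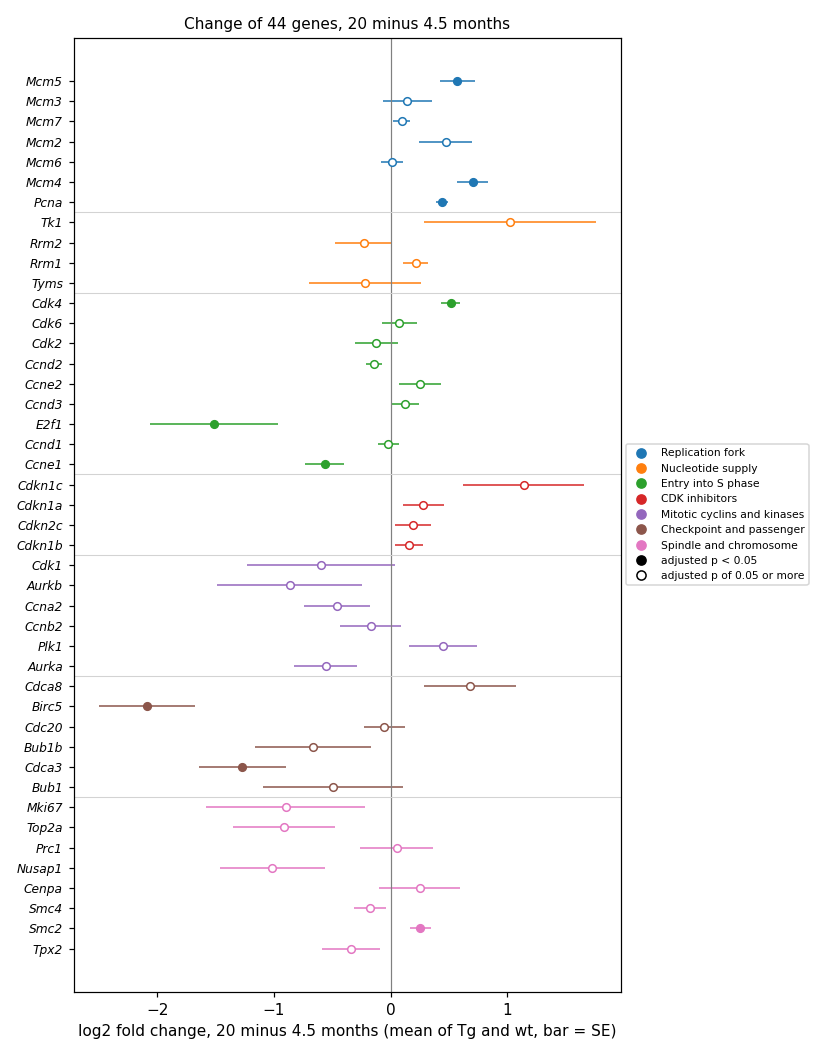
Log2 fold change of the 44 genes, 20 minus 4.5 months (horizontal axis, mean of Tg and wt, bar = SE), in the same role classes; filled points have an adjusted p below 0.05. The filled points on the right are Mcm4, Mcm5, Pcna, Cdk4 and Smc2 (0.26 to 0.70), and those on the left are Birc5, E2f1, Cdca3 and Ccne1 (-2.09 to -0.57).

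The last question was whether the additional Glud1 changed these genes in Tg mice. At 10 days 0 of the 44 genes differed between Tg and wt mice (0.0055% of all genes). Tyms was the 1 at an unadjusted p below 0.05, where 1028 of all 18193 genes were. At 4.5 months 0 differed (0% of all genes), with 2 at an unadjusted p below 0.05 (1060 of all genes). At 14.5 months 0 differed (0% of all genes), with 0 at that level (262 of all genes). At 20 months 0 differed (0.0275% of all genes), with 5 at an unadjusted p below 0.05 (887 of all genes). Averaged over the 5 ages 0 differed (0.011% of all genes), with 3 at an unadjusted p below 0.05 (1356 of all genes). At 9 months 4 of the 44 genes differed, where 1.49% of all genes did. These were Birc5 and Mcm5, which were lower in Tg mice, and Plk1 and Mcm6, which were higher in Tg mice.

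Birc5 at 9 months had 5.89, 6.01 and 13.6 in Tg mice, against 43.0, 68.5 and 67.3 in wt mice. The genotypes did not overlap and the difference was -2.90 ± 0.59 (adjusted p = 0.00842). The Tg values lay at the level of the bacterial controls, so its size is uncertain, and with 50 added it was -0.90 (adjusted p = 0.0157). At 20 months the dim values stood the other way, with 39.6, 35.4 and 4.51 in Tg mice and 5.16, 8.62 and 7.65 in wt mice, a difference of 1.40 ± 0.59 that was not called. Plk1 had 80.9, 73.9 and 46.2 in Tg mice of 9 months, against 12.4, 28.7 and 11.5 in wt mice, a difference of 2.03 ± 0.41 (adjusted p = 0.00882), or 0.79 with 50 added. Birc5 and Plk1 both belong to mitosis, so within 1 age 2 mitosis genes differed in opposite directions. Mcm5 had 99.5, 62.7 and 85.8 in Tg mice of 9 months, against 109, 181 and 159 in wt mice, a difference of -0.85 ± 0.21 (adjusted p = 0.0337). Mcm6, a subunit of the same helicase, had 544, 584 and 553 in Tg mice of 9 months, against 424, 372 and 356 in wt mice, a difference of 0.55 ± 0.13 (adjusted p = 0.0275). These helicase subunits also moved in opposite directions, each without overlap of the genotypes, and both calls were lost when Tg replicate 2 or 3 or wt replicate 2 or 3 of 9 months was left out. Among the 104 other cell cycle genes 1 was called at 9 months, the checkpoint kinase Ttk at -2.88 (adjusted p = 0.0386), a share below the 1.49% of all genes.

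All 4 differences rest on the 9-month arrays, on which the log2 ratio of 3′ to 5′ actin signal was 0.71 to 0.76 in Tg mice and 0.77 to 0.96 in wt mice (exact permutation test, two-sided, p = 0.1, the smallest that 3 against 3 allows), and the part of this was not tested. Fitted on the 9-month arrays alone, without the spread of the other ages, 0 of the 4 remained called. The share of all genes called in that fit was not counted, so whether this is particular to the 4 genes is not known. Whether the genotype difference varied over the 5 ages was tested by the limma F-test of genotype by age. It called 0 of the 44 genes (0.0275% of all genes). An unadjusted p below 0.05 was found in 8 of the 44, and in 1373 of all 18193 genes. The adjusted p was 0.106 for Cdca3, 0.146 for Birc5 and 0.254 for Plk1. Cdca3 at 20 months had 38.2, 46.3 and 75.9 in Tg mice, against 5.99, 4.75 and 24.2 in wt mice, a difference of 2.54 ± 0.53 that missed the threshold (adjusted p = 0.155). At 9 months it had 43.8, 12.7 and 6.83 in Tg mice and 70.2, 49.2 and 47.8 in wt mice, the other way round.

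**Figure D4:**
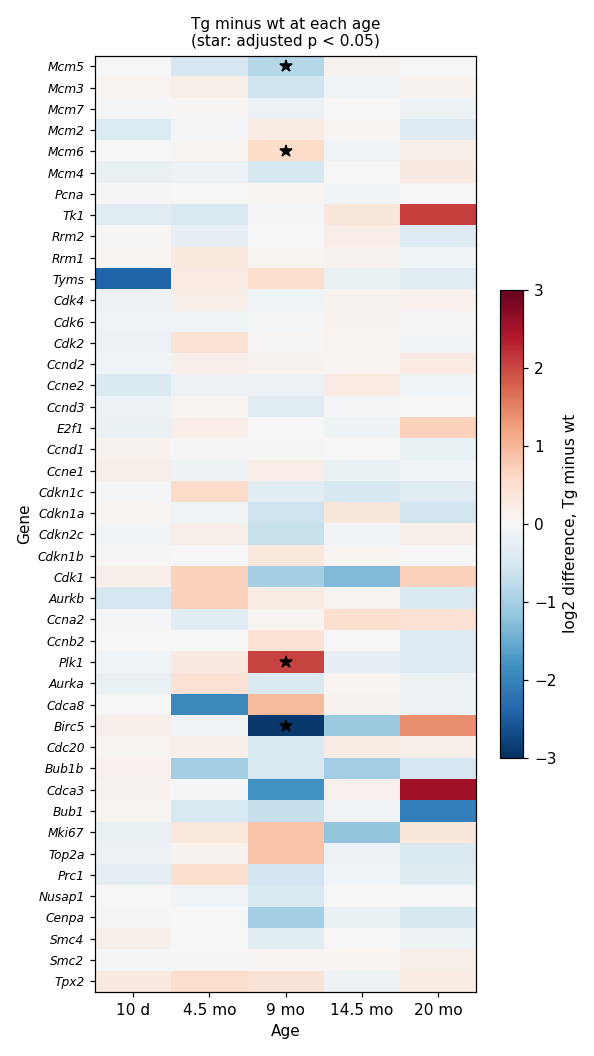
Log2 difference of the 44 genes, Tg minus wt, at each of the 5 ages (columns, 10 days to 20 months; colour scale in log2 units), with a star where the adjusted p is below 0.05. Stars appear at 9 months only, for Birc5 (-2.90), Mcm5 (-0.85), Mcm6 (0.55) and Plk1 (2.03).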

How the data were processed

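The authors deposited intensity values, linear MAS5 signals of 45101 probe sets scaled to a trimmed mean of 500 on each array, per the labels' processing notes, which give no MAS5 version. Detection calls were not used here, and the methods describe RMA of scanner files, which were not analysed here. The study's methods name 3 mice in each group, and the table holds 4 wt mice of 10 days. Log2 signals of the 45037 mouse probe sets were quantile normalised over 31 arrays without a filter on low values and fitted in limma 3.58.1 (R 4.3.3, statmod 1.5.0) with 10 group means, trended robust moderation and Benjamini-Hochberg adjustment, and the fit was tested on simulated data. A probe set annotated to 1 gene named it (34945 probe sets), and a gene took its brightest. Members and lists were chosen with earlier results of these data known. Values are given for the 2 largest changes of each role class and for members called against their class, between genotypes or between 20 and 4.5 months. Replicate numbers did not pair mice: 0 of 15 same-numbered pairs had deviations correlated above 0.1 (-0.0451 to 0.0326). Promoters are RefSeq sequence of GRCm38.p6. Alternatives were another scaling, an offset of 50, 2 filters, plain moderation, replicate blocks, the median over probe sets, only the ages compared, and leaving out each mouse.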

Additional observations from a re-analysis of the deposited data

Results flagged for a closer look

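In the wt group of 10 days, the 1 group with 4 mice, 1 mouse lay far from the other 3 in 3 of the 44 genes, judged by its gap to the nearest mouse relative to the range of the group. Mcm3 was 213 in wt replicate 3, against 262 to 273 in the other 3 mice. Plk1 was 184 in wt replicate 2, against 128 to 133 in the others, and Cdc20 was 306 in wt replicate 3, against 394 to 411. Chance marks about 1 group in 20 in this way. All 3 values lay above every adult value of the same gene.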

How the results depend on the processing

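With only probe sets above the 60th percentile of mean signal, 17 of the measured cell cycle genes were tested. Of these, 13 were lower at 4.5 months than at 10 days (35 in the full table) and 1 lower at 20 than at 4.5 months (4). In the same setting 14 differed among the adult ages (25) and 1 between Tg and wt at 9 months (4). Fewer genes could be called under this filter, so its lower counts do not by themselves show lost calls. With each gene taken as the median of its probe sets, 15 differed among the adult ages and 2 between genotypes at 9 months. In that setting the changes from 10 days to 4.5 months turned sign for Ccnd3 (1.01), Aurka (0.081), Tpx2 (-0.73) and Cenpa (0.30). The change of E2f1 also turned sign (-0.90), without a call before or after. This setting takes in the dimmer probe sets of each gene, whose changes were 0.65 and 1.36 in Ccnd3 and -0.98 and -0.54 in E2f1. Without the 9-month arrays, an alternative chosen after seeing the data, 7 genes were lower at 20 than at 4.5 months, with 14.8% of all genes. The 9-month genotype count was 2 under the cut-offs of the methods (1.3-fold, 0.01), and 0 on the 9-month arrays alone. There fewer samples estimate the spread, and the 9-month groups also had the lowest correlations between arrays. Shares of all genes are not given for the filter, the probe-set median, the cut-offs of the methods or the 9-month arrays alone. The counts in those settings therefore describe the cell cycle genes only.

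Replicate numbers did not pair the mice. With the replicate number as a block the counts were 35 lower and 3 higher at 4.5 months, 3 lower and 5 higher at 20 than at 4.5 months, 24 among the adult ages and 4 between genotypes at 9 months, and with a block within each age the last was 2.

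When each mouse was left out in turn the counts ran between 34 and 36 lower and 2 and 3 higher at 4.5 months, between 3 and 5 lower and 4 and 7 higher at 20 months, and between 22 and 26 among the adult ages. The 9-month genotype count ran between 2 and 5, with 2 without Tg replicate 2, wt replicate 2 or wt replicate 3 of 9 months, when the calls of Mcm5 and Mcm6 were lost, as they were without Tg replicate 3. At 20 months it ran between 0 and 1, with 1 without Tg replicate 1 or 3 of 9 months or wt replicate 3 of 20 months. The count of genotype differences that varied with age ran between 0 and 1, with 1 without Tg replicate 1 of 9 months or replicate 3 of either genotype of 20 months. The other genotype counts were 0 in every alternative run. Of the 44 genes, 33 kept their call with its direction, or their lack of a call, from 10 days to 4.5 months. This held in each alternative that tested them, and the 60th percentile filter tested 17 of the 44. The filter above the array median on 3 arrays tested 42. Of these, 19 passed it only with their 10-day arrays, at which they were high, so their kept calls under that filter add no support. Dim adult signals limit the size of the changes, and the median of the 44 was -0.90 with 50 added before the logarithm.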
